A study of Caenorhabditis elegans with 29 samples.

Results

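Gene expression was compared by RNA sequencing between gonads of fourth-stage (L4) larvae of Caenorhabditis elegans after RNAi against P granules and gonads of L4 larvae fed an empty vector. The comparison was defined by the labels of the samples: 6 of the 29 libraries of the study, 3 per group, described across the 45627 genes of the table. All animals were of strain DP132, which carries the transgene edIs6 on chromosome IV, so the controls too held its neuronal reporter (unc-119 fused to gfp, driven by the unc-119 promoter) and its rol-6 marker. RNAi animals ate bacteria making double-stranded RNA against the scaffold genes pgl-3 and pgl-1 and the helicase genes glh-4 and glh-1, from the first larval stage of the mothers and again in the offspring, at 24 °C. Larvae were staged by size and by the crescent at the vulva, and gonads were cut at the bend. A control library held 75 to 100 gonads and an RNAi library 125 to 150, titled as negative for UNC-119::GFP. Sterility cannot be scored at L4: over 80 percent of adults raised from the same RNAi population were sterile, so the pooled gonads may include some from animals that would have been fertile. Nothing in the labels ties the replicates to different cultures, so p-values here measure the spread between these samples only, and that spread may be technical. Because whole gonads were pooled, fewer cells of a type and less RNA per cell cannot be told apart.

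P granules are the germ granules of C. elegans, bodies of RNA and protein that sit at the nuclear pores of germ cells. PGL-1 and PGL-3 are scaffold proteins that build them, and GLH-1 and GLH-4 are Vasa-like RNA helicases found in them. They are known for keeping germ cells fertile and germline in character, and many small RNA pathway proteins gather there. In the L4 hermaphrodite the germ line holds dividing stem cells, cells in meiotic prophase and, toward the proximal end, cells making sperm, and oocytes follow in the adult.

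The 6 libraries held 1207471 to 3749155 reads on genes, and 13351 to 17156 genes had at least 1 read. Values per library were worked out from the deposited group averages as whole reads and are given as normalized reads, scaled by the authors. Libraries are called a, b and c within a group by falling depth. The libraries did not sort by treatment alone. The first axis of variation over 8853 genes took 72.0 percent of the variance and set RNAi library a (score 0.799) beside control library a (0.601), with control libraries b and c at 0.0116 and 0.133 and RNAi libraries b and c at -0.927 and -0.618. Pearson correlation of log2 values across genes, which are not independent replicates, was 0.950 between RNAi a and control a and 0.712 between RNAi a and RNAi b. Collagen genes stood at both ends of that axis: sqt-3, a cuticle collagen, had 2640, 1045 and 875 normalized reads in control libraries and 2646, 5.76 and 80.1 in RNAi libraries, while col-101 had 3.79, 211 and 535 against 22.1, 445 and 692. The summed level of 40 hypodermis and seam markers was 21165, 8431 and 8136 in control and 23188, 1135 and 2107 in RNAi libraries. Intestine markers summed to 43941, 67904 and 189257 against 65440, 53368 and 113167, and muscle markers to 27341, 19050 and 24735 against 39231, 12188 and 12852. Somatic gonad markers, a list that also holds basement membrane genes and shares members with the muscle list, summed to 28826, 26358 and 28072 against 35417, 22062 and 22138. Genes that the authors marked as germline-enriched took 24.6 to 28.6 percent of normalized reads in control and 21.9 to 31.9 percent in RNAi libraries, so germline RNA was abundant in all 6. The part of these differences between libraries in the results that follow was not tested. Where libraries of a list are counted as above or below control, the count without RNAi library a is given too. Over all genes with a mean of at least 50 normalized reads, the RNAi libraries lay above all controls in 4.3 percent and below them in 6.27 percent, and without RNAi library a in 21.6 and 24.2 percent.

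Neuronal RNA was scarce. The 66 neuronal markers together made up 0.0616 to 0.0681 percent of normalized reads in control and 0.0909 to 0.0984 percent in RNAi libraries, and 18 to 34 of them were at 0 in a library. The gene tbh-1, which makes octopamine and is also known from gonadal sheath cells, gave 1069 of 3354 and 968 of 3406 normalized reads of that sum in RNAi libraries b and c. Without it the sums were 2524, 2202 and 2650 in control and 3409, 2285 and 2438 in RNAi libraries, and they overlapped. The gene of the reporter, unc-119, whose reads cannot be told from those of the transgene, had 35.4, 40.1 and 41.7 normalized reads in control and 59.97, 38.01 and 69.0 in RNAi libraries. The groups overlapped, and unc-119 was not called (log2 fold change 0.36, adjusted p = 1.00 in the authors' deposited table).

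An adjusted p at L4 was given for 10924 genes in the authors' deposited table, and 22 of them passed 0.05 (0.201 percent), with 13 higher (0.119 percent) and 9 lower (0.0824 percent) in RNAi gonads. The genes that fell were the 4 targets, the related helicase glh-2, 3 genes that lie beside a target on the chromosome, and hacd-1. The genes that rose were led by the pseudogene T08D2.3. No gene list described below had a member that rose, while 2 of the 13, T08D2.3 and D2096.1, carry the authors' germline-enriched mark. Folds below are ratios of the group averages. Deposited log2 values in the authors' deposited table are smaller in size than those ratios for many genes (for pgl-1 -1.44, against -5.22 for the log2 ratio of averages with a pseudocount of 1), as shrunken estimates are.

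The RNAi targets were low in every RNAi library. The gene for the scaffold protein PGL-1 (pgl-1, chromosome IV) had 2223, 2648 and 2299 normalized reads in control libraries a, b and c and 18.9, 161 and 8.90 in RNAi libraries, a 37.9-fold fall (adjusted p = 0.00681 in the authors' deposited table). Its partner pgl-3 (chromosome V) had 950, 1154 and 1146 against 49.5, 157 and 57.8, a 12.32-fold fall with a log2 fold change of -2.17 and adjusted p = 7.73e-08 in the authors' deposited table. The 2 scaffold genes were thus left at 2.64 and 8.12 percent of the control mean. The helicase gene glh-1 (chromosome I) had 2016, 2784 and 2170 against 103.1, 435 and 73.4, an 11.4-fold fall with adjusted p = 0.00135 in the authors' deposited table. The other targeted helicase, glh-4 (chromosome I), had 912, 949 and 1056 against 69.4, 187 and 62.3, a 9.16-fold fall with adjusted p = 1.35e-06 in the authors' deposited table. Control and RNAi libraries of the 4 targets were well apart, and RNAi library b kept the most reads of each. Double-stranded RNA taken up by the worm comes from the same sequences, and reads from it cannot be told from reads of the gene.

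Another germ granule gene fell. glh-2, a Vasa-like helicase closely related to glh-1, was not named as a target. It had 428, 599 and 517 normalized reads in control and 113, 150 and 71.2 in RNAi libraries, a 4.63-fold fall with a log2 fold change of -1.65 and adjusted p = 1.61e-05 in the authors' deposited table. The groups did not overlap. Sequence shared between glh-2 and the targets was not analysed here, and reads that match both genes could have been counted for either.

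3 genes that neighbour a target also fell, by the gene order of the WBcel235 annotation. him-3, which encodes a protein of the meiotic chromosome axis, lies next to pgl-1 on the other strand. It had 473, 532 and 431 normalized reads in control and 30.5, 78.3 and 37.8 in RNAi libraries, a 9.78-fold fall with a log2 fold change of -2.17 and adjusted p = 2.03e-08 in the authors' deposited table. hil-4, a linker histone-like gene, comes before pgl-3 on the same strand. It had 1448, 1788 and 2118 against 337, 608 and 380, a 4.04-fold fall with adjusted p = 0.00022 in the authors' deposited table. T12F5.2, which follows glh-4 on the same strand, had 82.1, 82.8 and 93.8 against 10.52, 17.3 and 11.1, a 6.65-fold fall with adjusted p = 4.76e-05 in the authors' deposited table. The 3 neighbours were lower in each RNAi library than in any control library, and RNAi library b was again the highest of its group. The library kit did not mark the strand. T12F5.2 overlaps larp-5 and him-3 overlaps prkl-1, each on the opposite strand, so reads in those overlaps cannot be assigned.

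Other neighbours of the targets were not called. Within 3 places of a target, 8 further genes had a mean of at least 20 normalized reads, each with an adjusted p of 1.00 in the authors' deposited table. larp-5, next to T12F5.2, averaged 1112 in control and 1256 in RNAi libraries. lin-59, on the other side of glh-4, averaged 263 against 273. Beside glh-1, the helicase gene sacy-1 (H27M09.1 in the table) averaged 267 against 253 and the synaptonemal complex gene syp-4 averaged 664 against 591. rpb-5, an RNA polymerase subunit gene near glh-1, had 436, 422 and 472 normalized reads in control and 415, 1282 and 463 in RNAi libraries. RNAi library b stood apart there, at more than the level of any other L4 library. The remaining low neighbours were C25A8.5 (38.2 against 28.2), C18G1.9 (24.5 against 24.9) and T12F5.1 (66.9 against 79.9), where groups overlapped.

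The ninth gene that fell, hacd-1, encodes a hydroxyacyl-CoA dehydrogenase of fatty acid metabolism. It had 257, 123 and 205 normalized reads in control and 55.8, 29.9 and 42.3 in RNAi libraries. Its 4.57-fold fall had a log2 fold change of -1.52 and adjusted p = 0.000729 in the authors' deposited table. It was the only called gene whose direction was the opposite at Day 1: the authors' deposited table gives +2.58 at Day 1 of adulthood (adjusted p = 6.3e-06). The difference of the RNAi effect between Day 1 and L4, fitted with limma voom to the libraries of both stages, was 4.44 on the log2 scale (SE 1.23) and missed the threshold over all genes (adjusted p = 0.0934).

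**Figure D1:**
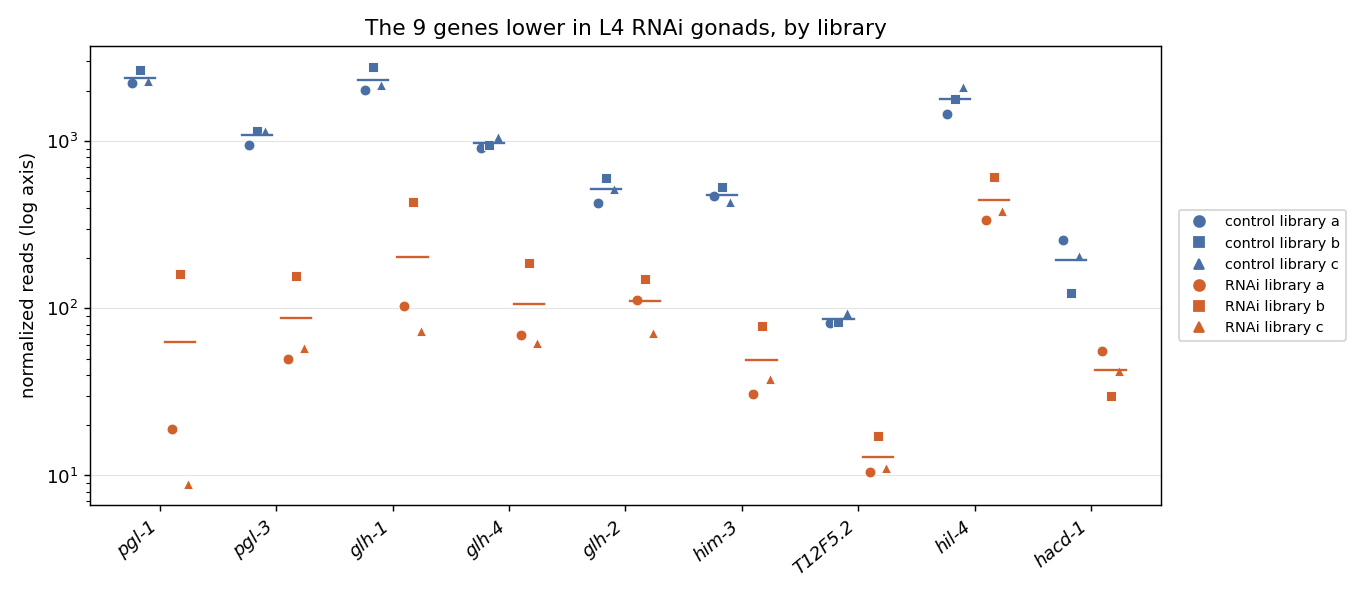
Normalized reads (log axis) of the 9 genes lower in L4 RNAi gonads, with 1 symbol per library (blue control, orange RNAi) and a line at each group mean. In each gene the 3 RNAi libraries lie below the 3 control libraries, and RNAi library b is the highest of its group in all but hacd-1.

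The gene that rose most was T08D2.3, listed as a pseudogene on the X chromosome. It had 758, 609 and 559 normalized reads in control and 34917, 12647 and 13902 in RNAi libraries, a 31.9-fold rise with a log2 fold change of 3.45 and adjusted p = 6.01e-26 in the authors' deposited table. All 3 RNAi libraries were far above the controls, with RNAi library a the highest. Its neighbours on the same strand, T08D2.2 and T08D2.5, averaged 39.1 and 43.004 normalized reads in control and 39.7 and 15.96 in RNAi libraries. It was the 1 called gene of 218 tested pseudogenes, whose summed reads, its own included, were 18675 to 18890 in control and 29121 to 52921 in RNAi libraries. It was higher again in the adults: the RNAi mean was 8560 ± 6549 at Day 1 against 552 ± 26.6 in control (SD, n = 3 each), and 40129 ± 31880 against 662 ± 18.6 in GFP-negative gonads at Day 2.

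glit-1, an X-linked gene for a gliotactin-like transmembrane protein of the cholinesterase family, had 58.1, 74.8 and 69.5 normalized reads in control and 368, 363 and 681 in RNAi libraries. This 6.98-fold rise had a log2 fold change of 1.97 and adjusted p = 3.81e-07 in the authors' deposited table. ctsa-1.1 (F41C3.5 in the table, chromosome II), a cathepsin A-like protease gene, was the most abundant coding gene that rose, with 1034, 850 and 962 against 1871, 1547 and 1631. Its 1.77-fold rise was small beside the others and its libraries were close together (adjusted p = 0.0121 in the authors' deposited table). hex-1 (X), a gene for a lysosomal hexosaminidase, had 70.8, 64.1 and 83.3 against 191, 150 and 165, a 2.32-fold rise with adjusted p = 0.0425 in the authors' deposited table. These 3 genes were higher in each RNAi library than in any control library.

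ckk-1 (III), which encodes a calmodulin-dependent protein kinase kinase, had 16.43, 10.7 and 13.9 normalized reads in control and 49.5, 76.0 and 64.5 in RNAi libraries, a 4.63-fold rise with adjusted p = 0.0383 in the authors' deposited table. timm-17B.2 (D2096.1 in the table, IV), a mitochondrial import gene, had 83.4, 80.2 and 93.8 against 217, 241 and 189, a 2.51-fold rise with adjusted p = 0.00681 in the authors' deposited table. Of 3 genes known by sequence name only, W04A4.2 (I) rose 2.80-fold, from 84.7, 82.8 and 115 to 264, 238 and 287 (adjusted p = 0.00135 in the authors' deposited table). K05C4.9 (I) rose 4.65-fold, from 11.4, 8.02 and 13.9 to 45.2, 51.8 and 57.8 (adjusted p = 0.0449 in the authors' deposited table). C07G1.7 (IV) had no read in any control library and 16.8, 29.9 and 40.04 in RNAi libraries. Against a floor of 3 reads in each control library, a mean of 7.41 normalized reads, it was at least 3.91-fold higher (adjusted p = 0.0329 in the authors' deposited table). The groups of these 5 genes did not overlap.

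The remaining 4 genes that rose, F59H6.5, ZK250.9, Y16E11A.2 and F33H12.6, have no entry in the WBcel235 annotation, as 1.59 percent of all tested genes have none. Their values were alike. F59H6.5 had 35.4, 32.1 and 45.1 normalized reads in control and 124, 188 and 180 in RNAi libraries, a 4.37-fold rise with adjusted p = 0.000477 in the authors' deposited table. ZK250.9 (3.81-fold), Y16E11A.2 (3.77-fold) and F33H12.6 (4.32-fold) ran from 18.7 to 34.7 in control and from 65.2 to 140 in RNAi libraries, and RNAi library a was the lowest of its group in all 4. Adjusted p was 0.0142, 0.0194 and 0.0425 for those 3 genes in the authors' deposited table. At Day 1 the 4 genes had log2 values of 1.95 to 2.17 in the authors' deposited table and of -0.48 to -0.40 in GFP-negative gonads at Day 2. Whether these genes share sequence, and so reads, was not analysed here.

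**Figure D2:**
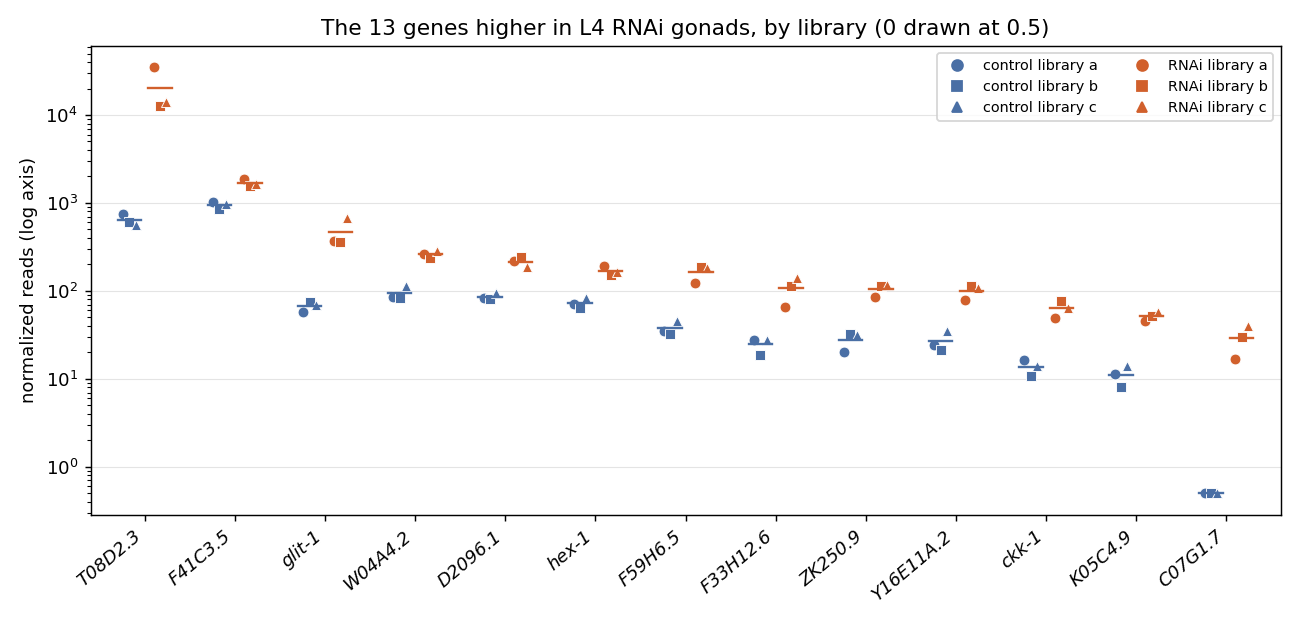
Normalized reads of the 13 genes higher in L4 RNAi gonads on a log axis, 1 symbol per library (blue control, orange RNAi), with group means as lines and 0 drawn at 0.5. RNAi libraries lie above control libraries in each gene, from the 31.9-fold rise of T08D2.3 to the 1.77-fold rise of F41C3.5, and C07G1.7 has no read in control.

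The 10 genes named next by adjusted p had values of 0.0595 to 0.156 in the authors' deposited table, and 8 of them had higher averages in RNAi gonads. Y48B6A.6, named after its values were seen, tied with the last of them and was 2.17-fold higher by averages. scrm-4, a phospholipid scramblase gene, had 32.9, 34.7 and 48.6 normalized reads in control and 147, 87.5 and 105 in RNAi libraries. Y69A2AR.31 (4.02-fold by averages), C31E10.5 (3.099-fold), F55B11.6 (7.46-fold, with 2.67 to 6.32 normalized reads in control), T19D12.6 (2.69-fold) and sdz-27 (2.66-fold) did not overlap between groups, nor did ZK250.10 (3.58-fold) and Y46B2A.2 (3.97-fold). The last pair have no annotation entry and ran at the same levels as the 4 genes above. The 2 genes with lower averages were his-9, an H3 histone gene, with 1062, 1218 and 1368 against 601, 661 and 598, and B0001.5, with 200, 243 and 226 against 104.2, 116 and 84.5. his-9 and its near copy his-13 (1.83-fold lower by averages) may share reads.

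Across all genes, 10786 of 10924 had an adjusted p above 0.99 in the authors' deposited table and the median log2 fold change was 0.0062. Of the 10924 genes, 5345 had a negative log2 fold change and 5579 a positive one. By the ratio of averages 520 tested genes differed at least 2-fold, 317 higher and 203 lower in RNAi gonads. With 3 libraries against 3 an exact two-sided permutation test of a single gene cannot go below p = 0.1, so the separation of libraries is given as a description. Among 6773 genes with a mean of at least 50 normalized reads, all 3 RNAi libraries lay above all 3 control libraries in 291 (4.3 percent) and below them in 425 (6.27 percent). With a fold of at least 2 added, these were 42 genes above (0.62 percent) and 29 below (0.428 percent), and without RNAi library a they became 74 and 725. By size of ratio those above were led by T08D2.3, glit-1, F59H6.5, F33H12.6 and Y46B2A.2, and those below by pgl-1, pgl-3, glh-1, him-3 and glh-4.

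**Figure D3:**
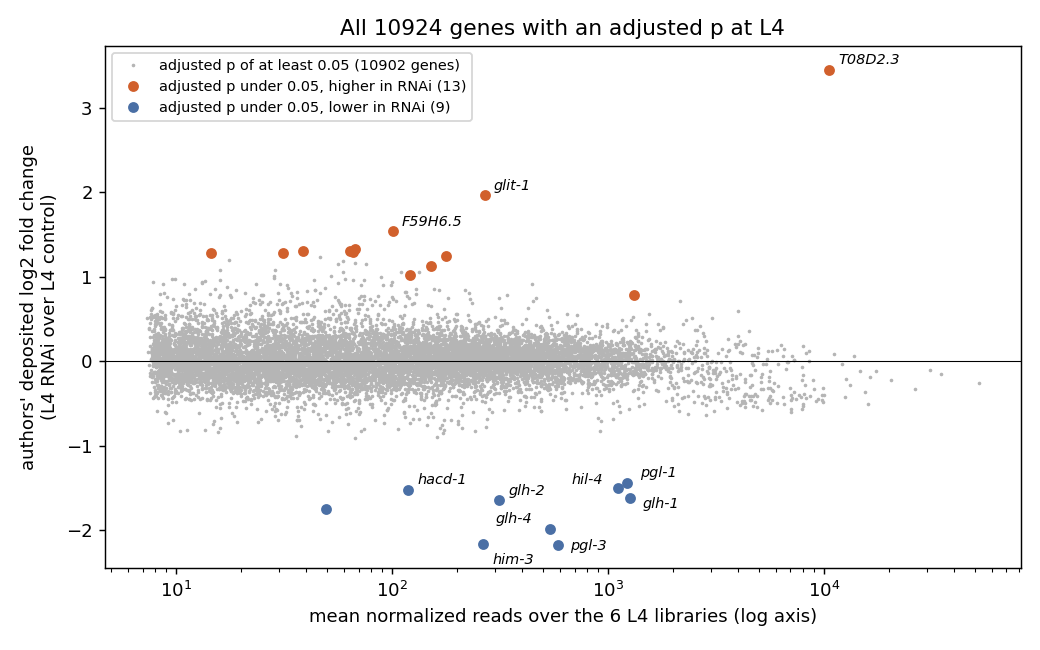
Log2 fold change in the authors' deposited table against mean normalized reads of the 6 L4 libraries (log axis), for the 10924 genes with an adjusted p. The 13 genes higher (orange) and 9 lower (blue) in RNAi stand at the edges, and the other genes (grey) lie around 0 with a median near 0.0062.

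Outside the targets, the germ granule and small RNA lists held 1 called gene. In each list below, the members given as examples are the 2 with the largest deposited log2 fold change in size. They are therefore the extremes of their list and not typical members. Of 29 further germ granule genes, glh-2 alone was called, and the median log2 fold change was 0.019 in the authors' deposited table. In 1 gene the RNAi libraries lay above all controls and in 3 below (4.3 and 6.27 percent of all genes). Without RNAi library a they did so in 7 and 3 of 28, against 21.6 and 24.2 percent. meg-2, which encodes a protein of embryonic germ granules, had 26.5, 42.8 and 59.03 normalized reads in control and 28.4, 117 and 142 in RNAi libraries, and the groups overlapped. Of 52 small RNA pathway genes (Argonautes, Mutator proteins, RNA-dependent RNA polymerases and their partners) none was called, 26 had a negative and 26 a positive log2 fold change, and the median was 0.006 in the authors' deposited table. Of the 50 with a mean of at least 50, 3 lay above and 6 below control in all libraries, against 4.3 and 6.27 percent of all genes. Without RNAi library a they were 13 and 8 of 50, against 21.6 and 24.2 percent. parn-1 (K10C8.1 in the table), which trims piRNA ends, had 182, 192 and 198 normalized reads in control and 74.7, 108 and 125 in RNAi libraries, without overlap. rrf-2, an RNA-dependent RNA polymerase gene, had 58.1, 42.7 and 34.7 against 88.4, 78.3 and 120, also without overlap.

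Meiotic and proliferation genes had 1 call between them. Of 46 genes of meiotic prophase, him-3 alone was called, with a list median of -0.03 in the authors' deposited table. cra-1, needed for chromosome synapsis, had 1125, 1125 and 899 normalized reads in control and 800, 701 and 612 in RNAi libraries and was not called. None of 32 stem cell and proliferation genes was called (median -0.008 in the authors' deposited table). There the cohesin gene scc-1 had 487, 561 and 611 against 579, 1031 and 1048, and the Pumilio-family gene puf-11 had 725, 1162 and 1236 against 521, 1844 and 1557. In both genes RNAi library a lay within or below the controls while RNAi libraries b and c lay above them.

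Sperm genes had mostly negative fold changes, and none was called. Of 34 tested genes for major sperm protein, the cytoskeletal protein of nematode sperm, 33 had a negative log2 fold change in the authors' deposited table (median -0.47). All 3 RNAi libraries lay below control in 15 of 30, against 6.27 percent of all genes, and in 22 of 30 without RNAi library a, against 24.2 percent. Their summed level was 8629, 5384 and 6174 normalized reads in control and 5540, 4197 and 2336 in RNAi libraries, and the sums overlapped. msp-81 had 452, 270 and 295 against 216, 152 and 71.2, and msp-113 had 179, 101 and 160 against 82.1, 76.0 and 37.8. Of 44 other tested spermatogenesis genes 35 had negative values (median -0.16 in the authors' deposited table). ssq-2, a sperm-specific gene, had 535, 446 and 465 against 304, 361 and 207. In the authors' sperm category 655 of 751 tested genes had negative values (median -0.19 in the authors' deposited table), against 5345 of 10924 over all genes. All 3 RNAi libraries lay below control in 19 of 285, against 6.27 percent of all genes. Without RNAi library a 83 of 255 did, against 24.2 percent. The category summed to 91129, 45690 and 40438 normalized reads in control and 66174, 44674 and 26314 in RNAi libraries, and the sums overlapped. These genes are much alike in sequence within families, and their reads may be shared between members. The regulator fog-1, a CPEB-related protein that sends germ cells into sperm fate, ran the other way, with 54.3, 64.1 and 55.6 against 101, 128 and 111, and was not called.

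Of 44 oogenesis and maternal genes none was called, and 33 had positive values with a median of 0.05 in the authors' deposited table. egg-4, needed for egg activation, had 629, 1093 and 1101 normalized reads in control and 657, 2284 and 2091 in RNAi libraries, and its paralogue egg-5 had 602, 1154 and 1066 against 629, 2212 and 2020. Both library a values were low in these genes. In the list 1 of 44 genes lay above control in all libraries, and 19 of 44 did so without RNAi library a, against 4.3 and 21.6 percent of all genes. Summed over the list, control libraries had 54810, 91517 and 99905 and RNAi libraries 42195, 103446 and 100628. Germline sex determination genes had 0 calls among 20 tested, with fog-1 and fog-3 furthest from 0; fog-3 had 32.9, 8.02 and 6.95 against 54.7, 21.9 and 35.6.

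Of 36 germline chromatin regulators none was called, and 28 had positive values (median 0.12 in the authors' deposited table). utx-1, an H3K27 demethylase gene on the X chromosome, had 32.9, 37.4 and 34.7 normalized reads in control and 67.3, 62.2 and 93.4 in RNAi libraries. cec-4 (F32E10.2 in the table), a chromodomain protein that anchors heterochromatin, had 109, 136 and 135 against 147, 252 and 200. In both genes the groups did not overlap, as in 4 above and 2 below of 34 listed genes with a mean of at least 50, against 4.3 and 6.27 percent of all genes. Without RNAi library a they were 18 and 2 of 33, against 21.6 and 24.2 percent. All 11 tested dosage compensation genes had positive values and none was called (median 0.13 in the authors' deposited table). The groups overlapped in the 10 with a mean of at least 50, as in sdc-1 with 46.8, 50.8 and 69.5 against 48.4, 106 and 111, and in sdc-3 with 40.4, 58.8 and 38.2 against 82.1, 55.3 and 73.4. Without RNAi library a, 3 of the 10 lay above and 1 below control, against 21.6 and 24.2 percent of all genes.

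Apoptosis and DNA damage genes had 0 calls among 25 (median 0.04 in the authors' deposited table). The corpse engulfment genes ced-1 (422, 532 and 597 normalized reads in control, 497, 733 and 772 in RNAi) and ced-6 (107, 160 and 167 against 133, 258 and 214) overlapped between groups. Heat shock and stress genes had 0 calls among 34 (median 0.04 in the authors' deposited table). pek-1, a kinase of the endoplasmic reticulum stress response, had 89.7, 56.1 and 62.5 against 127, 133 and 140, without overlap. dod-24 had 24.0, 21.4 and 20.8 against 86.3, 20.7 and 31.1, where RNAi library a stood apart.

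Outside the targets, ribosomal protein genes were the list with the largest share of members that did not overlap between the groups. None of the 77 tested was called, but 74 had a negative log2 fold change with a median of -0.43 in the authors' deposited table. All 3 RNAi libraries lay below all 3 control libraries in 72 of 76 genes, against 6.27 percent of all genes. The list summed to 415675, 507001 and 514822 normalized reads in control and 362149, 344308 and 305466 in RNAi libraries, or 10.9 to 12.9 percent of reads against 8.83 to 9.49 percent. rps-9 had 7558, 9563 and 9060 against 5889, 5135 and 5224 (adjusted p = 0.614 in the authors' deposited table). rps-21 had 2529, 3134 and 3052 against 2197, 1568 and 1528. Without RNAi library a 73 of 76 genes lay below control, against 24.2 percent of all genes. Without control library a 72 of 76 did, against 10.8 percent of all genes. Day 1 gonads showed the same sign, with 70 of 77 genes lower and a median of -0.65 in the authors' deposited table, where 10.4 percent of all genes were lower. These genes are short and highly expressed, and the part of RNA quality or library size in their level was not tested. Of 71 histone genes 0 were called, 44 had negative values, and 13 of 69 lay below control in all RNAi libraries, against 6.27 percent of all genes, or 23 of 66 without RNAi library a, against 24.2 percent.

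**Figure D4:**
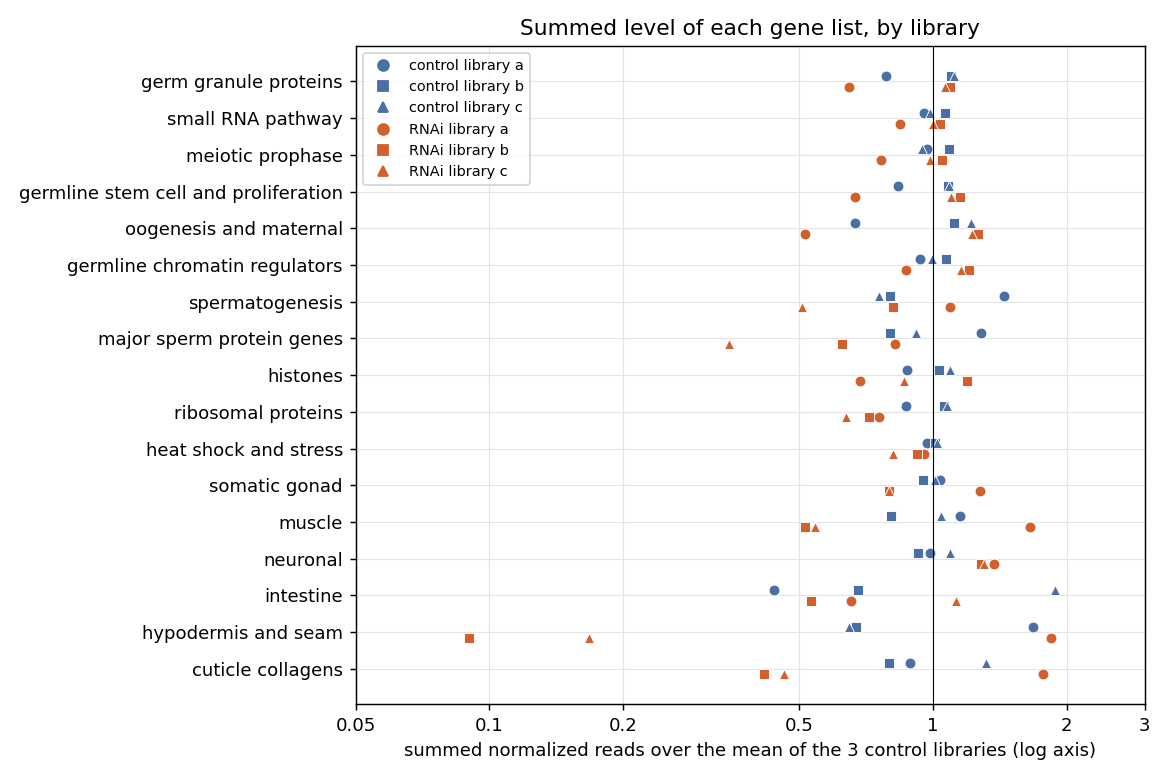
Summed normalized reads of each gene list over the mean of the 3 control libraries (log axis), with 1 symbol per L4 library (blue control, orange RNAi). The ribosomal protein sums separate the groups (305466 to 362149 in RNAi, 415675 to 514822 in control), while the hypodermis and seam sums range from 1135 to 23188 within the RNAi group.

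Somatic lists held no called gene, and their counts turned on RNAi library a. With control library a left out instead, 1 of 33 intestine and 0 of 20 hypodermis and seam markers lay below control. So did 0 of 36 muscle markers and 1 of 82 cuticle collagens, against 10.8 percent of all genes. None of 37 tested intestine markers was called, and 34 had negative values (median -0.25 in the authors' deposited table). The intestinal protease genes cpr-1 (334, 310 and 510 normalized reads in control; 336, 70.3 and 93.4 in RNAi) and cpr-5 (1184, 858 and 1101 against 1102, 138 and 125) were low in RNAi libraries b and c and at the control level in RNAi library a. Of 33 intestine markers with a mean of at least 50, 0 lay below control in all 3 RNAi libraries, and 27 of 33 did so without RNAi library a, when 1569 of 6494 genes did. Hypodermis and seam markers had 0 calls among 28, and 16 of 20 lay below control without RNAi library a (24.2 percent of all genes) and 0 of 22 with it. bli-2, a cuticle collagen gene, had 479, 139 and 104.2 against 339, 5.76 and 35.6, and the transcription factor gene grh-1 had 46.8, 10.7 and 13.9 against 28.4, 6.91 and 0. The wider list of cuticle collagens had 0 calls among 82 tested. With all libraries 0 of 83 lay below control, against 6.27 percent of all genes. Without RNAi library a 50 of 82 did, against 24.2 percent. There col-149 had 281, 150 and 295 against 218, 174 and 62.3, and col-68 had 15.2, 5.34 and 6.95 against 31.6, 12.7 and 17.8.

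Muscle markers had 0 calls among 47. In all libraries 1 of 36 lay above and 0 below control, against 4.3 and 6.27 percent of all genes. Without RNAi library a, 28 of 35 lay below control, against 24.2 percent of all genes. The pharyngeal myosin gene myo-2 had 13.9, 29.4 and 69.5 normalized reads in control and 7.37, 10.4 and 13.3 in RNAi libraries, and the dystrobrevin gene dyb-1 had 59.4, 34.7 and 52.1 against 90.5, 86.4 and 97.9. Of 43 somatic gonad markers 0 were called. With a mean of at least 50, 1 lay above and 2 below of 33, and without RNAi library a 3 and 12 of 33, against 21.6 and 24.2 percent of all genes. inx-8, a gap junction gene of the gonadal sheath, had 157, 142 and 215 against 326, 260 and 303, and the phospholipase C gene plc-1 had 21.5, 21.4 and 20.8 against 53.7, 41.5 and 46.7. In both the RNAi libraries lay above control.

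Neuronal markers had 0 calls among the 24 of 66 with an adjusted p. Of these, 20 had positive values (median 0.19 in the authors' deposited table), against 5579 of 10924 over all genes. A marker scarce in control could gain an adjusted p through its reads in RNAi libraries, so the signs of the 24 may be tilted. unc-31, needed for release of dense-core vesicles, had 0, 0 and 3.47 normalized reads in control and 16.8, 18.4 and 13.3 in RNAi libraries (adjusted p = 0.645 in the authors' deposited table). tbh-1 had 41.7, 211 and 205 against 178, 1069 and 968, where RNAi library a overlapped control. Of 15 tested neuropeptide genes, listed by their flp, nlp or ins names and not by tissue, 0 were called. nlp-33 had 79.6, 142 and 125 against 140, 5.76 and 22.2, and nlp-56 (Y57G11C.45 in the table) had 18.96, 24.0 and 31.3 against 8.42, 8.06 and 24.5.

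In the authors' own gene categories, of 2047 tested germline-enriched genes 2 were higher and 8 lower, against 0.119 and 0.0824 percent of all genes. The 8 are the 4 targets, their 3 neighbours and glh-2. Of 166 germline-specific genes 0 were higher and 3 lower, namely pgl-1, pgl-3 and glh-2. None of 1844 ubiquitous, 803 soma-specific or 751 sperm genes was called. The categories are the authors' marks and no independent evidence. Soma-specific genes lay above control in all libraries in 29 of 439 and below in 4, against 4.3 and 6.27 percent of all genes. Without RNAi library a this turned to 63 above and 202 below of 400, against 21.6 and 24.2 percent. On the X chromosome, which is largely silent in germ cells, 3 of 1200 tested genes were higher and 0 lower, against 0.119 and 0.0824 percent of all genes. With a mean of at least 50, 35 of 517 X-linked genes lay above control in all libraries and 2 below, against 4.3 and 6.27 percent of all genes, and without RNAi library a these were 58 and 220 of 433, against 21.6 and 24.2 percent.

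The called genes were followed into the adult. Of the 13 genes higher at L4, 13 were also higher at Day 1 in the authors' deposited table, where 19.4 percent of all tested genes were. In GFP-negative gonads at Day 2, 9 were higher and 2 lower, against 38.2 and 21.5 percent of all genes in the authors' deposited table. Of the 9 genes lower at L4, 8 were lower and hacd-1 was higher at both adult stages in the authors' deposited table. Over all genes, 10.4 percent were lower at Day 1 and 21.5 percent in GFP-negative gonads at Day 2. The 8 genes are the RNAi targets, glh-2 and the called neighbours of the targets.

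Whether the response itself differed between stages was tested with limma voom on the 12 libraries of L4 and Day 1, as the RNAi effect at Day 1 minus that at L4. Of 10240 genes 20 passed an adjusted p of 0.05 (0.195 percent), all with a more positive effect at Day 1, and 2486 had an unadjusted p under 0.05 (24.3 percent). Among the genes called at L4, ctsa-1.1 and hex-1 passed. ctsa-1.1 (F41C3.5) averaged 948 ± 92.8 against 1683 ± 168 normalized reads at L4 and 542 ± 77.5 against 4108 ± 552 at Day 1 (SD, n = 3 each), a difference of 2.09 on the log2 scale (SE 0.206, limma adjusted p = 0.0057). hex-1 averaged 72.7 ± 9.76 against 169 ± 21.2 at L4 and 30.6 ± 10.7 against 403 ± 80.7 at Day 1, a difference of 2.74 (SE 0.398, limma adjusted p = 0.0220). Both genes were lower in control gonads and higher in RNAi gonads at Day 1 than at L4. 3 genes of the basement membrane in the somatic gonad list passed too: the type IV collagens let-2 (3.49) and emb-9 (3.00) and the SPARC gene ost-1 (3.94), here named after their values were seen. At L4 let-2 had 2615, 2146 and 2580 against 4454, 2483 and 2452, where only RNAi library a stood high.

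Major sperm protein genes had wide gaps between stages, and none passed that test. The median log2 fold change of the major sperm protein genes was -0.47 at L4 and 5.83 at Day 1 in the authors' deposited table. There 32 of 32 tested were higher at Day 1, against 19.4 percent of all genes. For msp-113 the difference was 8.83 (SE 1.59, limma adjusted p = 0.0586) and for msp-81 it was 8.29 (SE 2.62, limma adjusted p = 0.106). In the authors' sperm category 4 genes passed, W09C3.7 (3.20), Y39G10AR.16 (6.39), kin-21 (6.30) and cyn-2 (3.99), named after their values were seen. The germ granule list had 20 of 29 genes lower at Day 1, against 10.4 percent of all genes, and 1 of 29 at L4, in the authors' deposited table. The oogenesis list had 34 of 44 lower at Day 1, against 10.4 percent of all genes, and 0 at L4, in the authors' deposited table. The spermatogenesis list had 33 of 44 higher at Day 1, against 19.4 percent of all genes, and 0 at L4, in the authors' deposited table. No gene of the last 3 lists passed the test of the difference itself.

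**Figure D5:**
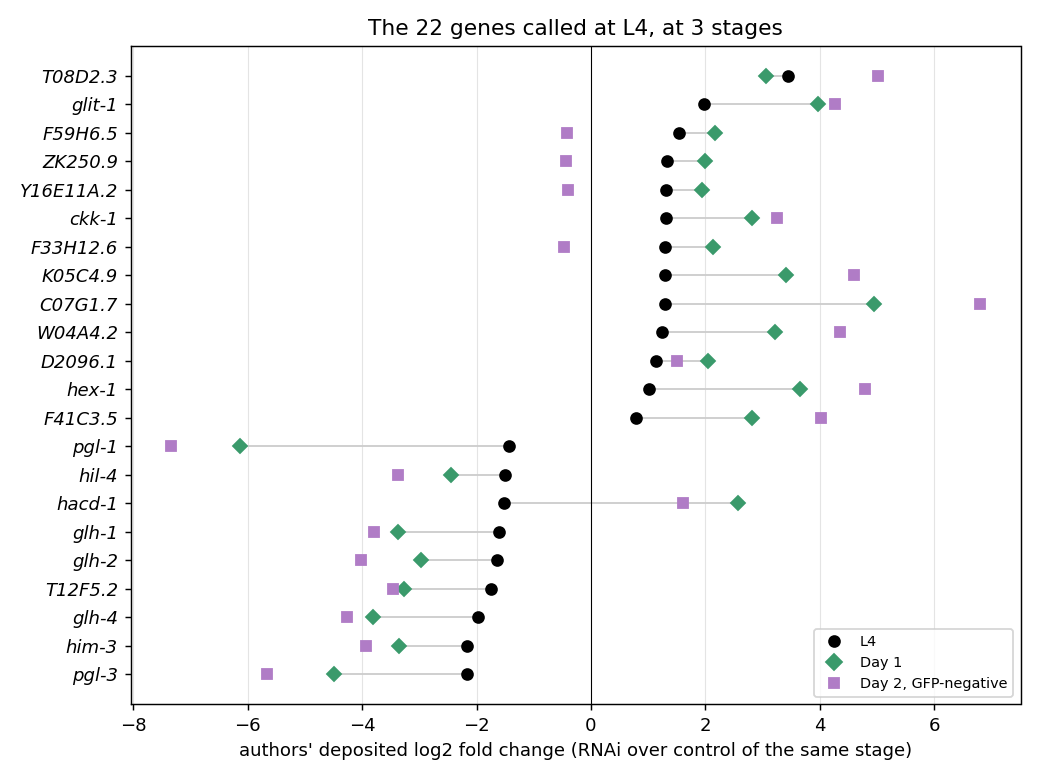
Log2 fold change of RNAi over control in the authors' deposited table for the 22 genes called at L4, at L4 (black circles), Day 1 (green diamonds) and in GFP-negative gonads at Day 2 (purple squares), with grey lines joining L4 to Day 1. hacd-1 goes from -1.52 at L4 to 2.58 at Day 1, and F59H6.5, ZK250.9, Y16E11A.2 and F33H12.6 lie below 0 at Day 2.

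A refit of the recovered L4 reads with limma voom, for errors per library, called 0 of 16587 genes after adjustment, higher or lower (0 percent each), and 669 had an unadjusted p under 0.05 (4.03 percent). All 22 genes called in the authors' deposited table kept their direction there with an unadjusted p under 0.05, and the lowest adjusted p was 0.116. Without RNAi library a 1074 genes passed the adjusted threshold in the refit (154 higher, 920 lower). All 22 were among them, 13 higher and 9 lower. Without RNAi library b, the one with the most target reads left, the 4 targets passed.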

How the data were processed

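Per the submitters' processing notes TopHat2 and DESeq2 were used; tool versions, genome build and the way reads were counted were not given in the sources used here. Per the file headers, the deposited table gives a log2 fold change, a p-value with Benjamini-Hochberg adjustment and a mean expression (normalized reads over the libraries compared) for each comparison, plus an average of normalized reads per group, a deposited signal value with no error. 0 or 1 marks the authors' deposited gene categories. The results at L4 are the deposited fold changes, called at an adjusted p under 0.05. No SD can be had from averages, so each library's whole reads were solved from them: for 10073 genes not used in the fitting, 100 percent gave back the deposited mean expression within a relative 1e-06, and on simulated data 100 percent of 3000 genes were recovered. Libraries carry no replicate numbers. 181 genes have no averages.

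Recovered reads were fitted with limma 3.58.1 (voom, R 4.3.3; Python 3.11.15), leaving out genes under 1 normalized read on average in every group. The planned fit over all 7 groups of the reporter strain gave 28.07 percent false calls for L4 on simulated data (22350 genes, 200 changed) and 41.2 percent for the difference between Day 1 and L4, and was replaced after that was seen. The 6 L4 libraries alone gave 4.05 percent false calls and found 13 percent of 2-fold and 58 percent of 4-fold changes (16426 genes in that simulation). For the difference, the 4 groups of L4 and Day 1 with a mean of at least 10 gave 10.1 percent false calls and found 19 and 70 percent (10214 genes in that simulation). Whether any of these rates holds for the real libraries was not tested. In the real L4 libraries the first axis of variation took 72.0 percent of the variance. A gene at 100 reads or fewer carries a counting error that these depths cannot reduce, and floors and counts cover counting error only.

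Genes were named by rule: every gene called at L4, the next 10 by adjusted p and the 5 largest separated ratios each way. The targets and their neighbours within 3 places were named too. In each list the 2 tested members with the largest deposited log2 fold change in size were named. The lists, the comparison and this rule were chosen with earlier results of these data known. Gene order, chromosomes and 6 names come from the WBcel235 annotation, release 115, matched by gene ID. Order, strand and overlap of genes rest on positions in that annotation, of which none is printed, since the build of the table is not stated. Sequence shared between genes was not analysed here.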

Additional observations from a re-analysis of the deposited data

Results flagged for a closer look

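The RNAi effect differed between Day 1 and L4 for ctsa-1.1 (F41C3.5), by 2.09 on the log2 scale (limma voom, adjusted p = 0.0057). The same test set hex-1 apart, with a difference of 2.74 (adjusted p = 0.0220). In each gene the 3 RNAi libraries were higher than the 3 controls at L4.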

How the results depend on the processing

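The groups did not overlap in any of the 22 called genes. Their direction therefore could not change in the 132 values with 1 library left out, nor with the log2 ratio of averages. The count of 22 deposited calls became 14 (5 higher, 9 lower) at a threshold of 0.01, 27 at 0.1 and 0 with limma voom on recovered reads. In that refit, which called 0 genes, limma-trend with a pseudocount of 1 or of 5 called 1 gene each, T08D2.3. Quality weights per library called 107 (18 higher, 89 lower) and the fit of all 7 groups 7, of which 0 were higher. Leaving out 1 library at a time called 0 to 1074 genes: 1074 (154 higher, 920 lower) without RNAi library a and 4 without RNAi library b. The 20 genes whose effect differed between Day 1 and L4 became 4056 with quality weights, 1083 with all 7 groups, and 2 to 3866 with 1 L4 library left out. Without control library a they were 2, without b 8 and without c 6, and without RNAi library a they were 3866 (2670 higher, 1196 lower) and without b or c 12. The 71 separated genes of at least 2-fold became 139 at a mean of 20, 189 at 1.5-fold, 53 with scaling to total reads, and 63 to 799 with 1 library left out (799 without RNAi library a). The cause of these changes was not tested. With 1 library left out, 7 genes that were not called changed sign: C18G1.9 ranged from -0.33 to 0.51, C25A8.5 from -0.75 to 0.16, T12F5.1 from -0.037 to 0.60, bli-2 from -3.48 to 0.059, lin-59 from -0.022 to 0.14, puf-11 from -0.0032 to 0.71 and rpb-5 from -0.016 to 0.97.

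No paired analysis was possible because the recovered libraries carry no replicate numbers. An adjustment over deposited unadjusted p and a search for shared sequence were not run. Depth limits low genes: with 1207471 reads in the shallowest library, no read there does not mean that a gene was silent.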
